A study of Arabidopsis thaliana with 12 samples.

Results

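Arabidopsis thaliana carries a large set of glutathione S-transferases of the tau (GSTU) and phi (GSTF) classes, and 38 of these genes are described here in wild type (WT) plants and in plants labelled as mutants of the phosphoserine phosphatase PSP1. The members were taken by locus from a fixed list of 28 tau genes (GSTU1 to GSTU28) and 10 phi genes (GSTF2 to GSTF8 and GSTF12 to GSTF14). All 38 loci were present among the 27416 targets of every deposited table. The phi genes GSTF9, GSTF10 and GSTF11 stand outside the list and were counted with the other transferase classes.

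Glutathione S-transferases join glutathione, a peptide of glutamate, cysteine and glycine, to reactive compounds such as herbicides and the products of lipid oxidation, and ABCC transporters move many of the conjugates into the vacuole. Some members act differently, as carriers of pigments or of other small molecules, or in the synthesis of sulfur-containing defence compounds. Many tau and phi genes respond to chemical stress through TGA transcription factors, which bind TGACG elements. Serine feeds the synthesis of both cysteine and glycine. The series compared WT with plants labelled as mutants of a gene in 1 route to serine, in a study whose title concerns sulfur assimilation.

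The series holds 12 RNA-seq libraries in 4 groups of 3, namely the aerial part and the roots of WT and of psp1 mutant plants, all of the Columbia ecotype. The plants grew upright on agar plates under long days, the protocols name no further treatment, and both organs were harvested as the night ended. The labels give no plant age and no psp1 allele, do not say whether the psp1 plants were homozygous, and call the 3 replicates of a group independent biological samples. The titles of all psp1 libraries begin with HS where those of WT libraries begin with WT, and the labels do not explain the letters, so anything they stand for cannot be told apart from the genotype. PSP1 (AT1G18640), the gene named in the labels, was not lower in the aerial libraries labelled psp1 than in WT. It stood at 50.4 to 73.8 CPM (counts scaled to the library total) in WT aerial libraries and at 243 to 401 CPM in the aerial libraries labelled psp1, and at 141 to 167 against 114 to 145 CPM in roots. The genotype is therefore written as psp1-labelled, and a count over coding sequence does not show whether a transcript is intact.

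Library totals ran from 3627193 to 9590308 counts, and in both organs every psp1-labelled library was shallower than every WT library. With counts thinned to equal depth, 3 members in the aerial part and 9 in roots were called different between the genotypes, against 4 and 12 with all counts. The 6 leaf markers summed to 28951 to 37378 CPM in aerial libraries against 351 to 514 CPM in roots. The 7 root markers summed to 3286 to 5698 CPM in roots against 279 to 335 CPM in aerial libraries, so both organ labels held. The root marker sum was lower in the psp1-labelled roots (3286 to 4418 CPM) than in WT roots (4871 to 5698 CPM), but that sum is almost all PYK10, which went from 5208 to 3645 CPM on average. Of the 7 root markers 2 were called lower in psp1-labelled roots (PYK10 and PIP2;4) and 2 higher, NRT2.1 from 2.85 to 24.2 CPM and ESB1 from 66.7 to 116 CPM. The part of these markers in the results below was not tested. Flower and seed markers stayed at or under 0.798 CPM in every library. In whole organs, fewer cells of a type and less RNA per cell cannot be told apart.

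GSTU19 stood far above every other member. Levels between genes are given in TPM, the authors' values scaled to target length and library. GSTU19 (AT1G78380; TAIR10.1 chromosome 1, 29486387 to 29488007, minus strand), a tau enzyme known for its response to herbicide safeners, had 3123, 2282 and 2804 TPM in WT aerial libraries 1 to 3. In WT roots it had 30434, 22353 and 28038 TPM, which placed it 2nd among the 27416 targets in each of these libraries. GSTU19 alone took 1.26% to 1.72% of all counts of a WT root library and 87.7% to 90.7% of the TPM summed over the 38 members. In psp1-labelled roots it took 0.222% to 0.593% of all counts and 51.3% to 72.0% of the members' TPM.

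**Figure D1:**
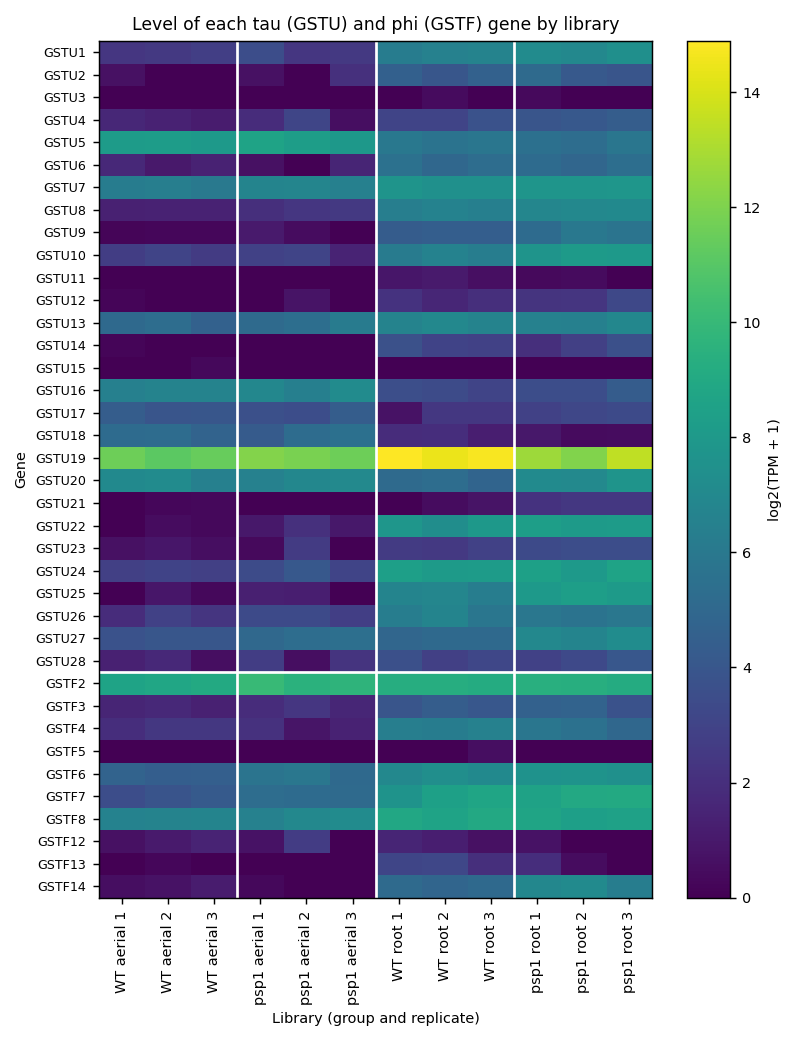
Level of each of the 38 genes in each of the 12 libraries, as the colour of log2(TPM + 1), with tau genes above and phi genes below the white horizontal line and the groups parted by white vertical lines. GSTU19 is the brightest row in every library, and most members are brighter in the root columns on the right.

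After GSTU19, GSTF2 was the most abundant member in both WT organs. GSTF2 (AT4G02520; chromosome 4, 1110343 to 1112033, minus strand) is a phi enzyme that is known to bind indole compounds, and it had 394, 456 and 530.0 TPM in WT aerial libraries and 618, 621 and 583 TPM in WT roots. GSTU5 (AT2G29450), with 293, 297 and 262 TPM, was the next member in the WT aerial part and fell to 60.2, 49.2 and 57.4 TPM in WT roots. These 3 genes kept their order in every WT aerial library. GSTU20 (AT1G78370), known as FIP1, a partner of the jasmonate-conjugating enzyme FIN219, had 134, 147 and 88.8 TPM in the WT aerial part, and GSTF8 (AT2G47730), a stress-inducible phi gene, had 94.3, 101 and 103 TPM. The values of GSTU20 and GSTF8 overlapped there, so their order was not resolved.

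The next members in WT roots were GSTF8, GSTF7 and GSTU24. GSTF8 had 493, 401 and 513 TPM, and GSTF7 (AT1G02920), a gene induced by pathogens, had 198, 346 and 432 TPM. GSTU24 (AT1G17170), which is known for the detoxification of trinitrotoluene, had 339, 272 and 287 TPM. GSTF8 stood above GSTU24 in every WT root library, while the range of GSTF7 overlapped both. Over all members the median level was 1.82 TPM in the WT aerial part and 31.7 TPM in WT roots, beside medians of 3.78 and 6.19 TPM over all targets. In the psp1-labelled libraries the members' medians were 3.43 and 45.2 TPM.

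Members at or above 100 TPM on average numbered 4 in the WT aerial part, 6 in the psp1-labelled aerial part, 9 in WT roots and 15 in psp1-labelled roots. In the aerial part GSTF8 (99.4 to 119 TPM) and GSTU16 (97.1 to 117 TPM) crossed that level. Their groups overlapped and neither was called there. The share of all genes at that level was not counted. Summed over the 38 genes, the level was 4044 ± 367 TPM (SD, n = 3) in the WT aerial part and 5732 ± 824 TPM in the psp1-labelled aerial part. In roots the sum was 30108 ± 4167 TPM in WT and 11552 ± 3576 TPM in psp1-labelled plants. Without GSTU19 the order of the 2 root groups turned, with 3167 ± 74.1 TPM in WT roots and 4172 ± 134 TPM in psp1-labelled roots. Without GSTU19 the aerial sums were 1307 ± 57.5 and 1903 ± 163 TPM. For the other 37 genes together both organs thus gave more TPM in the psp1-labelled libraries, with no overlap between the genotypes. In the aerial part most of that gain was GSTF2, which went from 460 to 862 TPM on average. TPM are not corrected for the differing makeup of the libraries. The TMM factors that make this correction were larger in the psp1-labelled libraries of both organs, which lowers their levels relative to WT.

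Of the 38 members, 5 had too few counts for a test in any comparison. GSTU3, GSTU11, GSTU15 and GSTF5 had 3, 15, 1 and 3 counts in all 12 libraries together. GSTF12 (AT5G17220), known as TT19 and needed to carry anthocyanins to the vacuole, had 48 counts in all, at most 11 in any library. Of the 9 listed genes of anthocyanin synthesis, 3 passed the filter in the aerial part and 1 did so in roots. The exact test called 0 of these different between the genotypes (1 had an unadjusted p under 0.05 in each organ).

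In WT plants most of the members were root genes. Differences between organs and genotypes were tested on estimated counts with the edgeR exact test, and a call means a Benjamini-Hochberg adjusted p under 0.01 over all genes tested. Of 32 members tested in WT, 26 were higher in roots and 5 were lower, and the median log2 difference of roots over the aerial part was 3.03 (0.03 over all genes). Among all 18202 genes tested, 33.6% were called higher and 30.9% lower in roots. Scaling by library totals in place of TMM factors, which correct for the differing makeup of the libraries, moved that all-gene median to 0.54, and the members' directions held under it apart from GSTF2, described below. The filter on low counts kept a gene that was high enough in 1 organ alone. GSTU12, GSTU14 and GSTF13, with 1 count each in the WT aerial libraries together, passed it only through the roots where they are high. The same held for GSTU2, GSTU4, GSTU6, GSTU8, GSTU9, GSTU22, GSTU23, GSTU25, GSTU28, GSTF3 and GSTF14. Their WT aerial means were 0.11 to 1.06 CPM. The 26 members called higher and the median of 3.03 include all these genes, so both lean on the filter. With no filter, 27 of 38 members were called higher and 5 lower in WT roots.

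Of the phi class, 7 of 8 tested members were higher in WT roots, and of the tau class 19 of 24. GSTU24 rose from 3.46, 3.97 and 3.29 CPM in WT aerial libraries to 189.8, 152 and 160.0 CPM in WT roots (log2 difference 5.03 ± 0.12 SE, adjusted p = 1.33e-158). GSTU22 (AT1G78340) had 0, 2 and 1 counts in the WT aerial libraries and 959, 800 and 1287 in WT roots. GSTU25 (AT1G17180), like GSTU24 a detoxifier of trinitrotoluene, had 0, 4 and 1 counts against 443, 585 and 434. The root and aerial libraries did not overlap for any of these 3 genes. Fitted differences of members with so few aerial counts depend on the prior count, so none is printed for these 2 genes.

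The 5 members lower in WT roots were all tau genes, GSTU5, GSTU16, GSTU17, GSTU18 and GSTU20. GSTU5 went from 171, 174 and 151 CPM in the aerial part to 35.1, 28.5 and 33.3 CPM in roots (-2.87 ± 0.11, adjusted p = 4.7e-90). GSTU18 (AT1G10360) gave the largest fall of the 5, at -4.36 ± 0.31. GSTU17 (AT1G10370), known as ERD9 and studied in light and drought responses, overlaps GSTU18 on the same strand by annotation and differed by -2.89 ± 0.68.

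**Figure D2:**
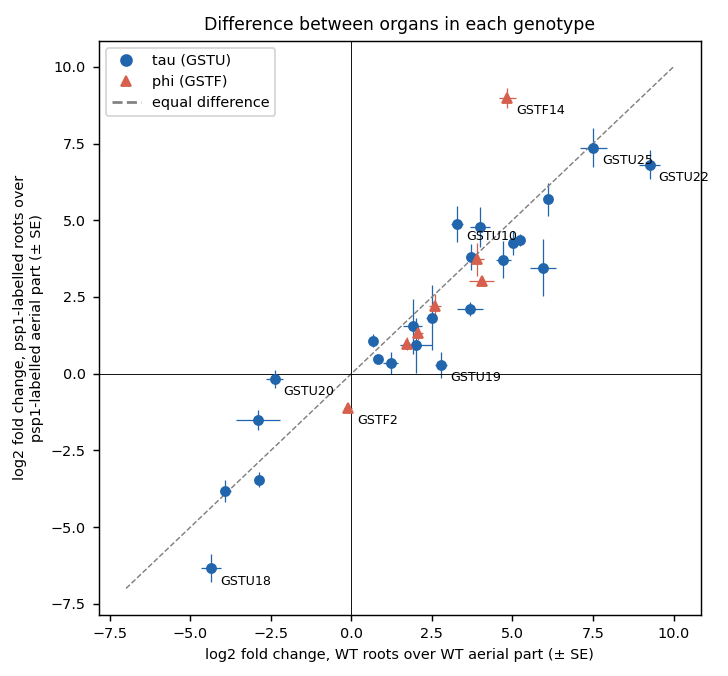
Log2 difference of roots over the aerial part in WT (horizontal) and in psp1-labelled plants (vertical) for the members tested in both, with SE from 3 libraries a group; circles are tau and triangles phi genes, and the dashed line marks equal differences. GSTU19 (2.79 and 0.29) and GSTU20 (-2.39 and -0.18) lie away from the line; the positions of GSTU22, GSTU25 and GSTF14 rest on few aerial counts.

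In psp1-labelled plants the same comparison of organs gave 18 members higher and 5 lower in roots among 30 tested, with a median of 1.97 (0.04 over all genes, or 0.60 with library totals). Over all 17344 genes tested, 25.2% were called higher and 24.5% lower. The filter again kept members through 1 organ alone. Among them were GSTU2, GSTU6, GSTU9, GSTU12, GSTU22, GSTU25 and GSTF14 through roots, and GSTU18 through the aerial part. With no filter on low counts, 20 of 36 members were called higher and 5 lower. Members called in the same direction in both genotypes numbered 18 higher and 4 lower, the latter GSTU5, GSTU16, GSTU17 and GSTU18. Another 7 members called in WT were tested but not called in psp1-labelled plants, and 2 were not tested there. The same overlap over all genes was not counted, so these numbers are not read as a result about the members. For several of the tau genes among these 7 the psp1 call turned with 1 library: without psp1 aerial 2 GSTU4 was 2.63 (adjusted p = 6.11e-05) in place of 1.54, and GSTU23, left with 1 aerial count, was called (2.49e-06, against 0.0691 with all libraries). Without psp1 aerial 3 GSTU13 was 0.78 (0.00712) in place of 0.35. GSTU7 was called without psp1 aerial 1 (0.00902) or 2 (0.0095), against 0.0111 with all libraries. GSTU19, GSTU20 and GSTU28 made up the rest of the 7. The call of GSTU12 was lost without psp1 aerial 1 (0.0133), and that of GSTU17 without psp1 aerial 3 (0.0247), psp1 root 1 (0.0303) or psp1 root 2 (0.0201). In WT, GSTU27 lost its call without WT aerial 1 (0.0196).

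In roots the psp1-labelled libraries differed from WT in 12 of the members, in both directions, with GSTU19 much lower and its neighbour GSTU20 higher. Of 32 members tested, 7 were higher and 5 lower, and the median log2 difference was 0.28 (0.01 over all genes, or 0.12 with library totals). Over all 17793 genes tested in roots, 8.72% were called higher and 9.10% lower. By class, 6 of 24 tau genes were higher and 2 lower, and 1 of 8 listed phi genes was higher and 3 lower.

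GSTU19 had 17159, 12547 and 15749 CPM in WT root libraries 1 to 3 and 3553, 2218 and 5934 CPM in psp1-labelled root libraries 1 to 3. The highest psp1-labelled value, in library 3, was under the lowest WT value. The difference was -2.06 ± 0.43 on the log2 scale (adjusted p = 3.17e-11), and over the alternatives it ran from -2.51 to -1.77 with the call kept.

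GSTU20 went the other way, from 19.5, 21.7 and 15.1 CPM in WT roots to 72.7, 65.2 and 111 CPM in psp1-labelled roots. The groups did not overlap, and library 3 was the highest of the psp1-labelled group, as it was for GSTU19. The difference was 2.04 ± 0.28 (adjusted p = 7.52e-17). GSTU20 in psp1-labelled roots thereby reached the range of the aerial part, which was 48.9 to 82.4 CPM in WT.

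GSTU27 (AT3G43800; chromosome 3, 15660770 to 15661987, plus strand) rose from 17.1, 19.3 and 19.5 CPM to 69.5, 56.7 and 83.3 CPM (1.79 ± 0.17, adjusted p = 3.8e-18). GSTU10 (AT1G74590) rose from 44.1, 58.5 and 48.1 CPM to 118, 152 and 157 CPM (1.39 ± 0.18, adjusted p = 1.52e-15). GSTU25 rose from 59.5, 64.1 and 45.3 CPM to 138, 169 and 147 CPM (1.32 ± 0.17, adjusted p = 9.03e-15). For these 3 tau genes each psp1-labelled library stood above each WT library. GSTU9 (AT5G62480) was lower in level, at 12.2, 13.4 and 13.3 CPM in WT and 21.6, 35.4 and 32.0 CPM in psp1-labelled roots (1.07 ± 0.22, adjusted p = 4.07e-05). GSTU21 (AT1G78360), next to GSTU20 on the chromosome, had 0, 2 and 4 counts in WT roots and 11, 11 and 10 in psp1-labelled roots, without overlap. It passed the filter on low counts only through the psp1-labelled roots, where it is high. Its fitted difference was 3.04 ± 0.37 (adjusted p = 1.8e-04), and at so few counts the SE understates the error; the edgeR quasi-likelihood test gave an adjusted p of 0.0122.

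**Figure D3:**
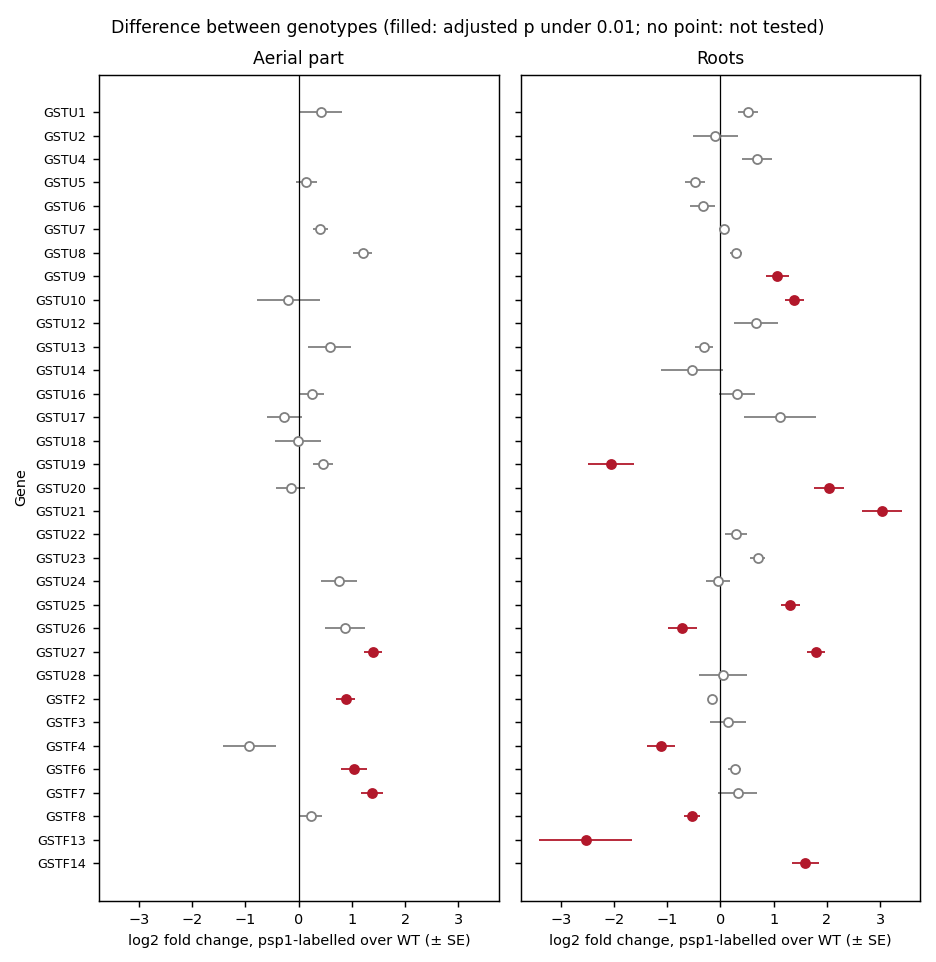
Log2 difference of psp1-labelled over WT libraries for each tested member in the aerial part (left) and in roots (right), with SE from 3 libraries a group; filled points have an adjusted p under 0.01 and genes without a point were not tested. In roots GSTU19 (-2.06) and GSTF13 (-2.53) lie at the left and GSTU20 (2.04) and GSTU21 (3.04) at the right. GSTF13 and GSTU21 rest on few counts and passed the filter only through the group where they are high. The 4 filled aerial points are all to the right of 0.

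Among the listed phi genes in roots 1 rose, GSTF14, and 3 fell. Of the phi genes outside the list, GSTF10 and GSTF11 were called higher and GSTF9 was not called, so the class did not mainly fall. GSTF14 (AT1G49860) had 24.2, 19.1 and 22.9 CPM in WT roots and 76.1, 89.0 and 51.3 CPM in psp1-labelled roots (1.60 ± 0.26, adjusted p = 3.38e-12). GSTF4 (AT1G02950) had 53.6, 49.5 and 60.1 CPM in WT and 34.4, 27.8 and 18.8 CPM in psp1-labelled roots (-1.11 ± 0.26, adjusted p = 2.51e-06). Neither gene had overlapping groups, and both calls were kept in every alternative. GSTF8 had 358, 289 and 371 CPM in WT roots and 282, 224 and 250.01 CPM in psp1-labelled roots. The gap between its groups was small, and the difference was -0.54 ± 0.15 (adjusted p = 0.00334). The call of GSTF8 was lost without WT root 1 (0.0302), WT root 3 (0.0407) or psp1 root 2 (0.0384), and with library totals (0.0187).

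GSTF13 (AT3G62760) rested on few counts, with 32, 41 and 16 in WT roots and 9, 1 and 0 in psp1-labelled roots. It passed the filter on low counts only through WT roots, where it is high. The groups did not overlap, and the difference was -2.53 ± 0.88 (adjusted p = 0.00307), a call that was lost without psp1 root 2 (0.0373) or psp1 root 3 (0.0162). GSTU26 (AT1G17190) had 43.9, 59.8 and 31.8 CPM in WT roots and 31.5, 26.0 and 31.5 CPM in psp1-labelled roots. WT root 3 lay close to the psp1-labelled values, and the difference of -0.71 ± 0.28 (adjusted p = 0.00898) lost its call in 9 of 14 alternatives. Without WT root 2 it was -0.47 and the adjusted p was 0.128; it was lost without WT root 1 (0.0335), psp1 root 1 (0.0279) or psp1 root 2 (0.0641) as well. Conversely GSTU1 (AT2G29490) was called higher without psp1 root 2 (0.00242, against 0.0176 with all libraries), and GSTU5 lower without psp1 root 3 (0.00579, against 0.0802).

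The remaining 20 tested members of the roots differed by -0.53 to 1.12 and were not called. Among them GSTF2 differed by -0.15 ± 0.07, with 333, 333 and 312 CPM in WT and 340.3, 319 and 292 CPM in psp1-labelled roots. GSTU24 differed by -0.05 ± 0.22, with 183, 131 and 209 CPM in psp1-labelled roots. GSTU17 had the highest value of the 20, at 1.12 ± 0.68 (adjusted p = 0.112), and GSTU14 the lowest. The groups of GSTF2 and of GSTU24 overlapped.

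In the aerial part, 4 members were higher in the psp1-labelled libraries and none was lower. Of 19 members tested, these were 1 of 14 tau genes and 3 of 5 listed phi genes, and the median log2 difference was 0.42 (0.01 over all genes). The phi genes GSTF9 and GSTF10, outside the list, were tested there and not called. Over all 15928 genes tested in the aerial part, 1.53% were called higher and 0.904% lower. These calls depended on the test: the edgeR quasi-likelihood test called 0 of the 4 in an organ where it called 31 genes in all, against 387 by the exact test. In the exact test 7 members had an unadjusted p under 0.05, and the share of all genes at that level was not counted.

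GSTU27 had 7.26, 9.02 and 8.63 CPM in WT aerial libraries and 18.4, 23.4 and 25.9 CPM in psp1-labelled ones (1.40 ± 0.17, adjusted p = 1.26e-05; 0.0167 in the quasi-likelihood test). It was the only member called higher in both organs by the exact test, and its 2 differences of 1.40 and 1.79 were not called different from each other (interaction 0.50 ± 0.24, adjusted p = 0.343). GSTF2 had 213, 247 and 282 CPM in WT and 554, 404 and 447 CPM in psp1-labelled aerial libraries (0.88 ± 0.18, adjusted p = 3.33e-05). No psp1-labelled value of either gene fell within the WT range. GSTF2 was not called without WT aerial 1 (0.0118) or by the quasi-likelihood test (0.0167).

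GSTF6 and GSTF7 form a pair of near copies. GSTF6 (AT1G02930), an enzyme of camalexin synthesis, had 13.4, 11.1 and 11.2 CPM in WT and 27.2, 30.8 and 17.7 CPM in psp1-labelled aerial libraries (1.04 ± 0.25, adjusted p = 0.00464). GSTF7 had 5.51, 7.27 and 9.17 CPM in WT and 20.4, 19.3 and 18.4 CPM in psp1-labelled ones (1.38 ± 0.21, adjusted p = 4.3e-05). Neither gene had overlapping groups, but GSTF6 lost its call in 8 of 14 alternatives, among them without WT aerial 1 (0.045), WT aerial 2 (0.096), WT aerial 3 (0.0965), psp1 aerial 1 (0.0137) or psp1 aerial 2 (0.0343). GSTF7 was not called without WT aerial 1 (0.016), and the quasi-likelihood test gave 0.056 for GSTF6 and 0.0215 for GSTF7. The coding sequences of the pair are 94.3% identical and share 30.8% of the 31-base words of GSTF7, so reads can be divided between them. Their summed level was 18.4 to 20.4 CPM in WT and 36.1 to 50.03 CPM in psp1-labelled aerial libraries. GSTF2 has a like partner in GSTF3 (94.5% identity), but GSTF3 stood at only 0.862 to 2.21 CPM in the aerial libraries.

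The other 15 tested members of the aerial part ran from -0.93 for GSTF4 to 1.20 for GSTU8 and were not called. GSTU19 had 1764, 1297 and 1564 CPM in WT and 2555, 2157 and 1828 CPM in psp1-labelled aerial libraries. Every psp1-labelled value of GSTU19 stood above the WT range in these CPM, which are relative to library totals. With TMM factors its difference of 0.46 ± 0.19 was not called (adjusted p = 0.126). GSTU20 had 74.8, 82.4 and 48.9 CPM in WT and 51.1, 67.9 and 72.2 CPM in psp1-labelled aerial libraries. These groups overlapped (-0.15 ± 0.28, adjusted p = 0.835). GSTU5, abundant in the aerial part, had 231, 184 and 147 CPM in the psp1-labelled libraries and overlapped WT as well (0.14 ± 0.20).

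The psp1 effect differed between the organs for 3 members. The test was that of the genotype by organ term in a quasi-likelihood fit of edgeR to the 12 libraries, where a positive value means a larger psp1-labelled minus WT difference in roots. Of 33 members tested, 1 was called positive and 2 negative, beside 0.816% positive and 0.869% negative among all 18759 genes tested. An unadjusted p under 0.05 was found for 15 members. The share of all genes at that level was not counted, so the 15 are not read as a result about the members.

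GSTU20 had the positive call, at 2.29 ± 0.39 (adjusted p = 4.47e-04), from -0.15 in the aerial part and 2.04 in roots. GSTU19 was called negative at -2.43 ± 0.47 (adjusted p = 6.47e-04), from 0.46 in the aerial part and -2.06 in roots. Both calls were kept in all 19 alternatives. GSTF2 was called negative at -0.94 ± 0.19 (adjusted p = 0.00795), from 0.88 in the aerial part and -0.15 in roots. The GSTF2 call was lost when WT aerial 1 (0.0314), WT aerial 2 (0.0257) or psp1 aerial 1 (0.0135) was left out. GSTU10 (1.66, adjusted p = 0.0201) and GSTF14 (adjusted p = 0.0158) were not called. GSTF14 had 1 count in all psp1-labelled aerial libraries together, so its fitted value is not printed, and without psp1 root 3 GSTF14 was called (0.00886).

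Seen by genotype, the organ difference of GSTU19 was 2.79 ± 0.19 in WT (adjusted p = 9.64e-57) and 0.29 ± 0.43 in psp1-labelled plants (0.423). In psp1-labelled plants the organs overlapped, and without psp1 root 3 the difference was -0.15; with library totals it was 0.84 and was called (0.0083). For GSTU20 the difference was -2.39 ± 0.28 in WT (5.34e-29) and -0.18 ± 0.28 in psp1-labelled plants (0.561). The GSTF2 difference was -0.11 ± 0.12 in WT, where it was not called (0.439) and turned to 0.40 with a call under library totals (0.00357), and -1.12 ± 0.15 in psp1-labelled plants (4.26e-10).

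**Figure D4:**
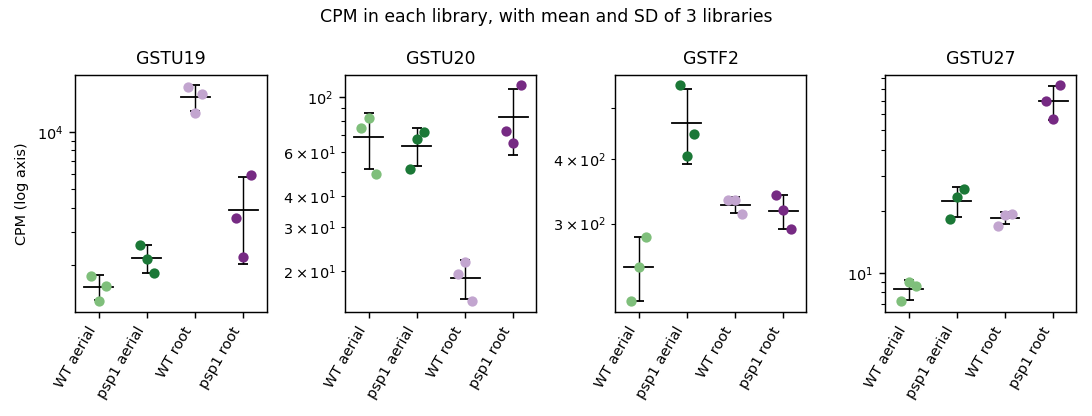
CPM of GSTU19, GSTU20, GSTF2 and GSTU27 in each library on log axes, with the mean (long bar) and SD (whiskers) of the 3 libraries of each group. WT roots stand apart as high for GSTU19 (12547 to 17159 CPM) and as low for GSTU20 (15.1 to 21.7 CPM), the psp1-labelled aerial part as high for GSTF2 (404 to 554 CPM), and GSTU27 is higher in the psp1-labelled group of both organs.

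Several members lie side by side as tandem copies, and neighbours differed in their response. GSTU19 to GSTU23 follow each other on chromosome 1 between 29467412 and 29488007. In roots GSTU19 differed by -2.06, GSTU20 by 2.04 and GSTU21, on few counts, by 3.04, all called. GSTU22 (0.30 ± 0.21) and GSTU23 (0.70 ± 0.14) were not called. The root levels of GSTU22 were 129, 87.7 and 134 CPM in WT and 170.2, 144 and 151 CPM in psp1-labelled plants. In the cluster GSTU24 to GSTU26 (chromosome 1, 5869543 to 5876620) GSTU25 rose, GSTU26 was lower and GSTU24 was not called. In the phi cluster GSTF4 to GSTF7 (chromosome 1, 658578 to 666471) GSTF4 fell in roots, while GSTF6 (0.27 ± 0.12) and GSTF7 (0.32 ± 0.37) were not called. GSTU1 to GSTU7 lie near each other on chromosome 2 but are not an unbroken run. They held no member called between the genotypes in either organ when all libraries were used.

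**Figure D5:**
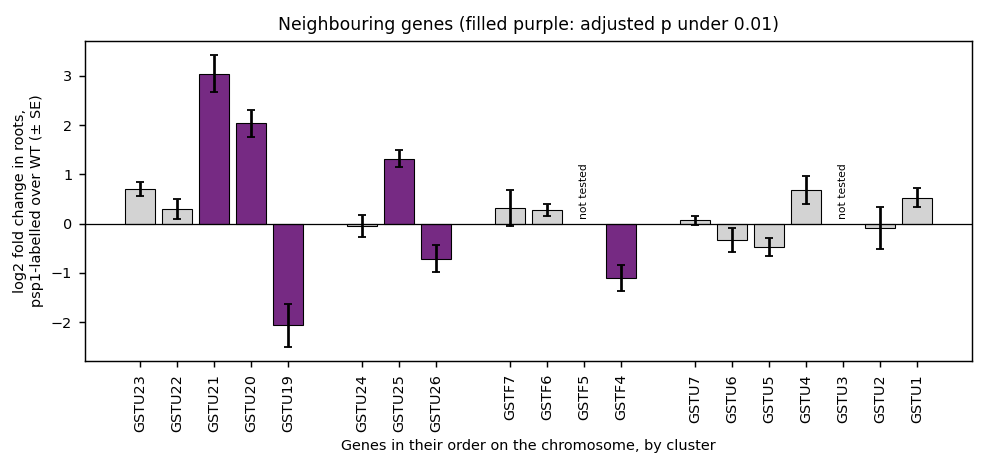
Log2 difference of psp1-labelled over WT roots for the members of 4 sets of nearby genes, drawn in chromosome order within each set. SE is from 3 libraries a group, and purple bars have an adjusted p under 0.01. GSTU21 and GSTU20 rise to 3.04 and 2.04 beside GSTU19 at -2.06. GSTU21 rests on few counts and passed the filter only through psp1-labelled roots. No gene of the set at the right, GSTU1 to GSTU7, is called, and that set is not an unbroken run.

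The promoters of the 4 members called in both organs or in the interaction are shown because these genes carry the differences above. Each window runs from 250 bases before to 50 bases after the RefSeq start of the gene in TAIR10.1, 5′ to 3′ on the strand of the gene, and capitals mark the motif TGACG, searched on both strands. The windows are chr1:29487958-29488257 (minus) for GSTU19, chr1:29485340-29485639 (minus) for GSTU20, chr3:15660520-15660819 (plus) for GSTU27 and chr4:1111984-1112283 (minus) for GSTF2.
GSTU19: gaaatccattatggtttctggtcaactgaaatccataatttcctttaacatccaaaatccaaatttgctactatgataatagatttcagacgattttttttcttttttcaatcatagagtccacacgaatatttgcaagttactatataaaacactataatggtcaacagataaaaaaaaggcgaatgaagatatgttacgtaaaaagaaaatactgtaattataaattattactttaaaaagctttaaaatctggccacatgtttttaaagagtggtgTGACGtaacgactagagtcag
GSTU20: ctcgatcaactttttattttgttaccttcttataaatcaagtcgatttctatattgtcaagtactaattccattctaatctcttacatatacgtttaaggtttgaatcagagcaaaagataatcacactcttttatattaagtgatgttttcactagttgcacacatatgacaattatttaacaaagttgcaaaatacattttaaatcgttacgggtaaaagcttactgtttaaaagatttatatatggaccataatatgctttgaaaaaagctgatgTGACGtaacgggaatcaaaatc
GSTU27: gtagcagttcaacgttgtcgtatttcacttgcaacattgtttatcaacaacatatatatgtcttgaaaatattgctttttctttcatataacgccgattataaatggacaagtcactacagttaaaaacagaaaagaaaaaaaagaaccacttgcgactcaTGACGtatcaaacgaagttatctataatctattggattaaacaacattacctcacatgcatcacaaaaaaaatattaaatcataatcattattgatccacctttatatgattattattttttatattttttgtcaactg
GSTF2: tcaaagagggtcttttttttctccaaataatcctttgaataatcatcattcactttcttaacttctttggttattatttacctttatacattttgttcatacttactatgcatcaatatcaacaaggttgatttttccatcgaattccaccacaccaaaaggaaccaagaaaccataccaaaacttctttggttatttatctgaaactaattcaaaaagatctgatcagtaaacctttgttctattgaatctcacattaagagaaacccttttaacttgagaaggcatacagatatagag
TGACG began 29 bases after the start in GSTU19, 28 bases after it in GSTU20 and 89 bases before it in GSTU27, and these letters were not in the window of GSTF2. GSTU19 and GSTU20, which moved in opposite directions in roots, thus both had the motif, at nearly the same place. TGACG was in the windows of 16 of the 38 members (42.1%) and of 23.1% of 27443 promoters of the same length. GAGAC, the core of a sulfur response element, also searched on both strands, was in 5 of the 38 members (13.2%) and in 32.8% of all promoters, and in none of the 4 windows shown. A match describes letters only.

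Genes that work beside the members were followed as lists. Over all genes tested, 8.72% were called higher and 9.10% lower in roots, and 1.53% higher and 0.904% lower in the aerial part. With lists this short, shares of calls are not read as a response of a list. Of 15 transferases outside the list, of other classes apart from the phi genes GSTF9, GSTF10 and GSTF11, all were tested in roots. There 3 were higher and 1 lower in psp1-labelled plants (26.7% called), with a median of 0.13. GSTL1 (AT5G02780), a lambda class transferase, went from 10.3 ± 3.16 to 55.0 ± 6.29 CPM (2.29 ± 0.26, adjusted p = 1.16e-22), without overlap between the groups. GSTF11 (AT3G03190), a phi gene known from glucosinolate synthesis, was at 1.61 ± 0.86 and 5.70 ± 1.76 CPM (1.72 ± 0.51, adjusted p = 0.00418), and DHAR1 (AT1G19570), a dehydroascorbate reductase, at 357 ± 68.2 and 265 ± 25.5 CPM (-0.54 ± 0.17, 0.00483). The fourth, GSTF10 (AT2G30870), named after its value was seen, differed by 0.50 ± 0.16 (0.00577). Without WT root 1 the adjusted p was 0.0108 for GSTF11, 0.0707 for DHAR1 and 0.0725 for GSTF10, and each of the 3 was lost without psp1 root 2 too (0.0601, 0.026 and 0.0365). In the aerial part 1 of 12 tested was called, the reductase DHAR2 (AT1G75270), at 25.9 ± 1.15 and 44.4 ± 4.62 CPM (0.74 ± 0.10, 0.00375), which was lost in 7 of 14 alternatives, among them without WT aerial 1 (0.0689), 2 (0.0867) or 3 (0.0895) or psp1 aerial 2 (0.0221).

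Of 10 genes for glutathione supply and conjugate transport, 9 were tested in each organ. In roots 22.2% of the 9 were called, beside 8.72% higher and 9.10% lower over all genes. In roots 2 were higher: the conjugate transporter ABCC3 (AT3G13080), from 136 ± 13.4 to 249 ± 25.6 CPM (0.76 ± 0.12, adjusted p = 6.07e-07), and the glutathione reductase GR1 (AT3G24170), from 274 ± 34.6 to 429 ± 26.2 CPM (0.54 ± 0.12, adjusted p = 8.72e-04). GR1 was not called without WT root 1 (0.011) or WT root 3 (0.022). The synthesis genes GSH1 (-0.07) and GSH2 (-0.33) were not called. In the aerial part 1 of 9 was called, GGT1 (AT4G39640), a glutathione-degrading enzyme of the apoplast, from 53.5 ± 7.76 to 103 ± 7.37 CPM (0.90 ± 0.14, adjusted p = 2.1e-05; 0.0167 in the quasi-likelihood test).

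Of 13 genes of the chemical stress response and its TGA regulators, 2 were higher and 1 lower in psp1-labelled roots, with a median of 0.51. That is 23.1% called, beside 8.72% higher and 9.10% lower over all genes. CYP81D11 (AT3G28740), a cytochrome P450 of that response, fell from 213 ± 24.4 to 40.3 ± 7.64 CPM (-2.51 ± 0.19, adjusted p = 2.15e-44). The glucosyltransferases UGT74E2 (AT1G05680) and UGT73B4 (AT2G15490) rose by 1.20 ± 0.13 (4.19e-12) and 0.87 ± 0.12 (1.87e-08). TGA2, TGA5, TGA6 and SCL14, the regulators on the list, differed by -0.15 to 0.61 and were not called. In the aerial part 0 of 13 were called by the exact test (3 with an unadjusted p under 0.05). CYP81D11 was also called in the interaction, at -2.72 ± 0.22 (9.18e-07).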

How the data were processed

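RNA-seq of 12 libraries was analysed from 1 deposited table per library. Per the labels' protocols, single reads of 75 nucleotides (SOLiD 5500XL) from polyadenylated RNA were assigned by the authors to the TAIR10 transcriptome with kallisto 0.43.0, at a fragment length of 200 and an SD of 30, and analysed in R 3.3.2 with edgeR in classic mode; how strand was treated is not given in the sources used here. The deposited estimated counts need not be whole, because kallisto divides reads between similar targets, and were rounded. The deposited TPM are scaled by the authors' program to target length and were used for levels between genes, without a test. Targets hold coding sequence.

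Estimated counts were tested with edgeR 4.0.16 in R 4.3.3: the filterByExpr filter, TMM factors, the exact test on the 6 libraries compared, Benjamini-Hochberg adjustment over all genes tested with calls made at an adjusted p under 0.01. The interaction used the edgeR quasi-likelihood test over 12 libraries. SE came from the spread of log2 CPM with a prior count of 2, and printed CPM are relative to library totals. The p-values set a difference against the spread between 3 samples a group, and that spread was estimated in part over all genes tested. Alternatives were the quasi-likelihood test, DESeq2 1.42.0, DESeq2 size factors, library totals, no filter, thinned counts, near copies summed (GSTF2 with GSTF3, GSTF6 with GSTF7), a replicate block and each library left out. The test code was tested on simulated data with changes put into well-counted genes. It called 58% of 2-fold changes in the aerial part, 68% in roots and 12% in the interaction. Of 4-fold changes it called 98%, 99% and 83%. A member not called, above all in the interaction, was thus not shown to be unchanged. Genes without a change were called as well, 14 in the aerial part, 11 in roots, 15 between WT organs and 2 in the interaction. For the exact test these false calls were more than the adjusted level of 0.01 stands for. Single calls in the aerial part and in roots are to be read with that limit.

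Members, gene lists and tests were chosen with earlier results of these data known. Values in every library are given for each member called between genotypes or in the interaction and for the 5 members of highest mean TPM in each WT organ; of each other list up to 3 called genes per genotype comparison are named. Coordinates and promoters are from RefSeq on TAIR10.1, in which all 38 loci were found, 37 with a coding length equal to the target length. Depth ran from 3627193 to 9590308 counts per library.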

Additional observations from a re-analysis of the deposited data

Results flagged for a closer look

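For 3 members the psp1 effect differed between the organs in the edgeR quasi-likelihood test of the interaction (roots minus aerial part, adjusted p under 0.01). GSTU19 differed by -2.43 on the log2 scale (adjusted p = 6.47e-04). In CPM relative to library totals, all 3 psp1-labelled libraries were above WT in the aerial part and all 3 below WT in roots. TMM factors were 0.778 to 0.803 in WT aerial libraries and 0.870 to 0.897 in psp1-labelled ones. Scaled by them, WT aerial 1 stood above psp1 aerial 3. The aerial difference of GSTU19, 0.46, was not called by the exact test (adjusted p = 0.126). GSTU20 differed by 2.29 (adjusted p = 4.47e-04), with overlapping groups in the aerial part and all 3 psp1-labelled libraries above WT in roots. GSTF2 differed by -0.94 (adjusted p = 0.00795), with all 3 psp1-labelled libraries above WT in the aerial part and overlapping groups in roots. The spread among psp1-labelled aerial libraries, a biological coefficient of variation of 23.1% against 11.3% in WT, was the widest of the 4 groups, and its part in these differences was not tested.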

How the results depend on the processing

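Of the 12 members called between genotypes in roots, 8 were called in every alternative run (GSTU9, GSTU10, GSTU19, GSTU20, GSTU25, GSTU27, GSTF4 and GSTF14), and of the 4 in the aerial part 0 were. In the aerial part the quasi-likelihood test called 0 members, as it did with a replicate block, and between 1 and 4 were called with 1 library left out, 1 (GSTU27) without WT aerial 1; the cause was not tested. With 1 library left out the counts were 9 to 12 in roots, 30 to 31 between organs in WT, 21 to 28 in psp1-labelled plants and 2 to 4 in the interaction. The interaction called 5 members with no filter on low counts, when more genes were tested. GSTF2 turned from -0.11 to 0.40 between WT organs with library totals, and GSTU19 from 0.29 to -0.15 between psp1-labelled organs without psp1 root 3 (up to 0.58 without psp1 root 2). Over all genes, the aerial part had 387 calls, 31 with the quasi-likelihood test, 21 with the block and 112 to 711 with 1 library left out. Roots had 3172, 2232 with the quasi-likelihood test and 1837 with the block. The interaction had 316, 828 with DESeq2 and 136 to 374 with 1 library left out. Same-numbered libraries correlated at -0.05 to 0.02 between genotypes in the aerial part, -0.04 to 0.05 in roots, 0.03 to 0.15 between WT organs and 0.02 to 0.04 between psp1-labelled organs. No comparison had all 3 over 0.1, so the numbers were not taken to pair the samples, although between WT organs every library correlated best with its own number, a hint from the data and not the design. The block took the members called in roots to 9 and in the interaction to 2. GSTU21 was lost with the quasi-likelihood test (0.0122) and the block (0.0238), and GSTF13 with both (0.0339 and 0.0229) and with DESeq2 (0.0113). Depth limits the members with few counts: 19 of 38 could be tested in the aerial part.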
